A study of Mus musculus with 6 samples.

Results

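The claudins and the other core genes of the tight junction were examined in primary mammary epithelial cells and in tumor cell lines without JNK. The genes were taken by name: every claudin (*Cldn* followed by a number), every *Tjp* and *Marveld* gene, and *Ocln*, *F11r*, *Cgn*, *Cgnl1* and *Pard3*. This gave 36 genes of the 37753 entries that carried FPKM values (fragments per kilobase of transcript, scaled to the mapped fragments of the library, and so a level corrected for gene length and library size). They were 25 claudins, 4 MARVEL proteins, 3 ZO scaffolds, 2 cingulins, 1 junctional adhesion molecule and 1 polarity scaffold.

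Tight junctions seal the space between neighboring epithelial cells near their apical side. Claudins span the membrane and join across the gap in strands, and which claudins a cell makes decides whether the seal blocks or passes ions and water. Occludin, tricellulin and the junctional adhesion molecules sit in or beside the strands, while the ZO proteins and cingulin tie them to actin and the polarity scaffold PAR3 helps to place them. In the mammary gland these junctions close the alveoli at the onset of milk secretion, and breast tumors with joint low levels of *Cldn3*, *Cldn4* and *Cldn7* are known as claudin-low.

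The first group, MEC, held 3 libraries of mammary epithelial cells of genotype WAPCre+, each from 3 to 5 pooled virgin females aged 10 to 12 weeks, in primary culture on collagen I with serum, EGF and insulin. The second group, MEKO, held 1 library from each of 3 mammary tumor cell lines of genotype Mapk8KO Mapk9KO Cre+, numbered 199, 233 and 336, which spent 2 passages on collagen before they were moved to ordinary dishes. Both groups were of strain C57/Bl6J and carried Cre under the *Wap* promoter, which lactation switches on in luminal cells, while the MEC donors had not lactated. The lines came from tumors of parous mice, and genotype, tumor origin, parity, culture and passage changed together between the groups and cannot be told apart. The comparison asked how gene expression in tumor cells that lack JNK differs from that of normal mammary epithelium.

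The targeted genes were low in every line. *Mapk8* had 22.5 ± 2.98 FPKM in MEC and 3.47 ± 2.30 FPKM in MEKO (SD, n = 3), and *Mapk9* had 22.7 ± 1.53 FPKM and 4.61 ± 2.60 FPKM. Line 199 kept the most RNA of both. These values are RNA levels, and the study found no JNK protein by immunoblot in the MEKO tumor cells it examined. In lines 199, 233 and 336, *Mapk8* had 5.93, 3.12 and 1.37 FPKM and *Mapk9* had 7.62, 3.15 and 3.07 FPKM. The lines differed among themselves in cell type markers. The summed level of 6 basal markers (*Krt5*, *Krt14*, *Trp63*, *Acta2*, *Myh11* and *Oxtr*) was 1282 to 2242 FPKM in MEC and, in lines 199, 233 and 336, 1865, 9.92 and 45.1 FPKM. The sum of 6 fibroblast markers was 95.7 to 179 FPKM in MEC, 1081 FPKM in line 199, and 2.38 and 1.82 FPKM in lines 233 and 336, where *Lum* was listed at 0. The sum of 8 mesenchymal transition genes, which include *Snai1*, *Snai2*, *Zeb1*, *Zeb2* and *Vim*, was 118 to 197 FPKM in MEC and, by line, 576, 7.93 and 29.4 FPKM. *Vim* made up most of it in MEC (86.2 to 160 FPKM). *Snai1* was above every MEC library (3.50 to 3.80 FPKM) in all lines, at 8.42, 4.05 and 7.80 FPKM. *Twist1* was above MEC in line 336 (3.75 FPKM) and below it in line 233. The rest of the list was below every MEC library in lines 233 and 336. The sum of 6 luminal markers (*Krt8*, *Krt18*, *Krt19*, *Epcam*, *Cdh1* and *Elf5*) was 5352 to 8902 FPKM in MEC and lower in all lines, at 789, 1962 and 1283 FPKM. *Elf5*, a luminal transcription factor, was at 0.461 FPKM or less in the lines against 31.5 FPKM or more in MEC. The lists did not move as wholes in line 199. Its *Krt5*, *Krt14* and *Trp63* were above every MEC library and its basal sum was inside the MEC range, while *Myh11* (0.0812 FPKM) and *Oxtr* (0.0125 FPKM) were far below MEC. *Col1a1*, *Col1a2*, *Col3a1* and *Pdgfra* were above every MEC library, while *Dcn* (0.311 FPKM) and *Lum* (0.0264 FPKM) were below. All 8 transition genes were above every MEC library. Line 199 thus stood apart from the other lines, and results that rest on it are given with and without it. These are bulk samples, in which fewer cells of a type and less RNA per cell cannot be told apart.

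The promoters of 3 members are printed here for the sites they hold. *Cldn1* and *Tjp3* kept their calls in every alternative fit, and *Cldn4* was the most abundant claudin in every library. Each sequence is the 250 bases before the start of the gene in RefSeq on GRCm38.p6, read 5′ to 3′ on the strand of the gene. All 3 genes lie on the minus strand, *Cldn1* with chr16:26371840-26372089, *Tjp3* with chr10:81291582-81291831 (its first start site) and *Cldn4* with chr5:134946935-134947184. Capitals mark each match to CACCTG or CAGGTG, the E-box bound by SNAI and ZEB factors, and to TGANTCA, the site of AP1, a factor that JNK acts on.
Cldn1: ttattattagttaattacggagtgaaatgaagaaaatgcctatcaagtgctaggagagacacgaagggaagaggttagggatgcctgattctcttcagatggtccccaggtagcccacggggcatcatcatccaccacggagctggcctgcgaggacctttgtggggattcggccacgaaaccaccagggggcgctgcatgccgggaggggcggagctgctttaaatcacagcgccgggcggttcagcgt
Tjp3: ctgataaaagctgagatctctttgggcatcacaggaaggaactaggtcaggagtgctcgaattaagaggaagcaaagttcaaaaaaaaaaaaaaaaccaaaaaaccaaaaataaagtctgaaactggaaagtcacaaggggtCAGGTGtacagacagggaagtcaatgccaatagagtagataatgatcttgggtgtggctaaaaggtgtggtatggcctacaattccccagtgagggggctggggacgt
Cldn4: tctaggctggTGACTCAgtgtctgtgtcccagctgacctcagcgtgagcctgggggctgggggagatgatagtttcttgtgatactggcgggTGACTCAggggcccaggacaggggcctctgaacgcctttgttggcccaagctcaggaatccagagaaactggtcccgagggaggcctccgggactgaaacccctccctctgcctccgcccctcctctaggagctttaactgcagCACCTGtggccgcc

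The *Cldn1* window held no match to these motifs. *Tjp3* had an E-box 108 bases before its first start site, and another 17 bases before its second start site, whose window is not printed. *Cldn4* had an E-box 14 bases before its start and AP1 matches at 240 and 158 bases, and none of these sites overlapped another. RefSeq promoters were matched for 28 of the 36 genes, 40 windows in all. Both strands were searched. An E-box was in 9 of the 40 windows (22.5%), against 17.2% of all 32851 RefSeq promoter windows of this length. Among the tested members it was in 8 of 22 windows (36.4%), with more than 1 window for some genes. The share among promoters of all tested genes was not counted, so this value has no matched background. Windows of *Cldn4*, *Cldn6*, *Cldn7*, *F11r*, *Ocln*, *Pard3* and *Tjp3* held one, so the E-box was in promoters of genes that fell and of genes with no call. AP1 matches were in 3 windows (7.5%, against 6.75% of all), those of *Cldn4*, *F11r* and *Cldn15*. The GRHL core AACCGGTT, bound by grainyhead-like factors, was in none of the 40 and in 0.116% of all windows. A match says only that the letters are there. Promoters of *Cldn23*, *Cldn25* and *Marveld3* were not matched.

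Of the 36 genes, 19 had a mean of at least 1 FPKM over the 6 libraries and were tested in a limma fit across all 12461 genes with that level. A gene was called where its limma p, adjusted over all genes, was below 0.05 and its difference was over 0.75 on the scale of log2(FPKM + 1), which understates changes of low genes. None was called higher in MEKO, where 2.64% of all tested genes were, and 3 were called lower (*Cldn1*, *Cldn6* and *Tjp3*), where 7.26% of all tested genes were. In either direction 9.9% of all tested genes were called. Without the adjustment, 6 of the 19 had a limma p below 0.05, as did 28.2% of all tested genes. The median difference of the 19 genes was -0.52, with 6 above 0 and 13 below, and the median of all tested genes was 0.01. The groups did not overlap in 9 of the 19, and in 37.2% of all tested genes. *Tjp3* had a MEKO mean under 1 FPKM and passed the filter through MEC, so these counts describe the list and are no test of it. For a single gene, an exact permutation test of 3 against 3 libraries cannot go below p = 0.1, and all p-values measure the spread between these libraries alone.

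**Figure D1:**
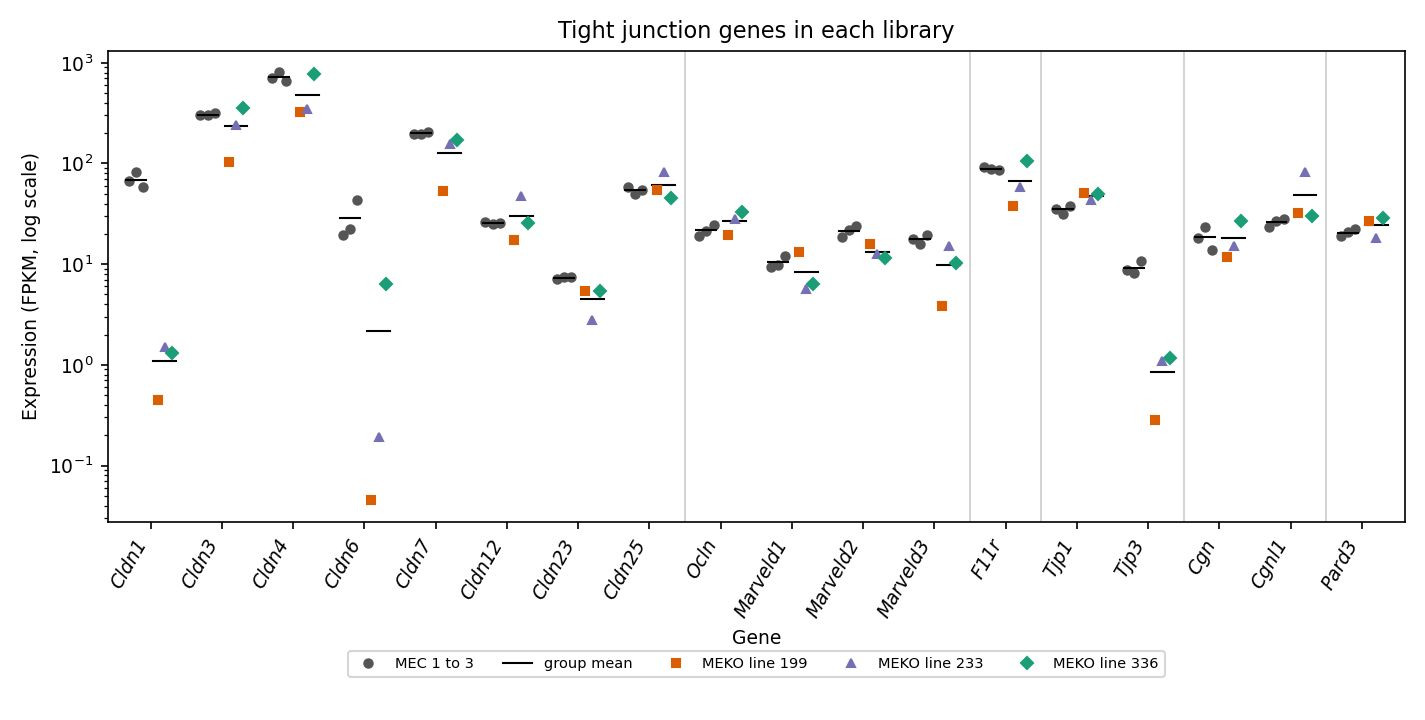
Expression of 18 of the 19 tested genes in each library, as FPKM on a log axis, with MEC libraries as grey circles, lines 199, 233 and 336 as colored symbols and group means as bars. *Cldn1* and *Tjp3* stand far below MEC in every line, and *Cldn6* is below MEC in every line but least so in line 336. *Cldn4*, *Cldn3* and *Cldn7* are the most abundant claudins in both groups.

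*Cldn1* showed the largest difference. It encodes claudin-1, a sealing claudin that the barrier of the skin depends on. Its level was 66.9, 82.3 and 58.3 FPKM in the MEC libraries, and 0.446, 1.51 and 1.30 FPKM in lines 199, 233 and 336. No line kept more than 2.18% of the MEC mean. *Cldn1* (chr16:26356642-26371841, minus strand) fell from 69.1 ± 12.1 FPKM to 1.08 ± 0.562 FPKM (n = 3, ± SD). The estimate in limma was -5.10 ± 0.26 (SE) on the log2 scale, with an adjusted p of 0.000715. It passed in all 13 alternative fits, with log2 fold changes from -6.00 to -4.85. Its neighbor *Cldn16*, a claudin of the kidney 91.3 kb away, was listed at 0 in all 6 libraries.

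*Tjp3* encodes ZO-3, the scaffold of the ZO family that is found in epithelia. Its level was 8.79, 8.07 and 10.6 FPKM in MEC, and 0.281, 1.08 and 1.17 FPKM in lines 199, 233 and 336. All lines were thus far under the lowest MEC library. *Tjp3* (chr10:81273207-81291581, minus strand) fell from a mean of 9.17 ± 1.33 FPKM to one of 0.845 ± 0.490 FPKM (n = 3, ± SD). In limma the change was -2.49 ± 0.27 (SE) on the log2 scale, at an adjusted p of 0.00445. It passed in all 13 alternative fits (-3.47 to -2.20). It shares 40 exon bases, 1.08% of its exons, with *Apba3* on the opposite strand.

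*Tjp1* encodes ZO-1, the scaffold that links claudins and occludin to actin. It had 35.4, 31.4 and 38.1 FPKM in MEC and 51.1, 43.03 and 49.5 FPKM in lines 199, 233 and 336. Every line lay above every MEC library. The log2 fold change of the group was 0.44 (95% interval 0.09 to 0.80, limma adjusted p = 0.113), which was not called.

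*Cldn6* encodes claudin-6, best known from embryonic epithelia. Its level was 19.3, 22.3 and 43.8 FPKM in MEC, and 0.0452, 0.194 and 6.28 FPKM in lines 199, 233 and 336. The lines were all under MEC, but line 336 kept far more than the others and MEC 3 was well over the other MEC libraries. *Cldn6* (chr17:23679249-23682446, plus strand) fell from 28.5 ± 13.4 FPKM to 2.17 ± 3.56 FPKM (n = 3, ± SD). In limma this was -3.73 ± 0.78 (SE) on the log2 scale, at an adjusted p of 0.0338. The call was lost in 6 of 13 alternative fits, with limma adjusted p values of 0.103, 0.110 and 0.131 without MEC 1, MEC 2 and MEC 3, 0.0808 without line 233, 0.0600 with a pseudocount of 0.1 and 0.0608 without the filter. The difference stayed between -5.37 and -3.23 in all 13. Without line 199 it was -3.23, and the call was only just kept (limma adjusted p = 0.0490). *Cldn9* lies on the opposite strand, with its 3′ end 0.137 kb from the 3′ end of *Cldn6*. It was listed at 0 in MEC 1 and MEC 2 and was at 0.171 FPKM or less in the other libraries.

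**Figure D2:**
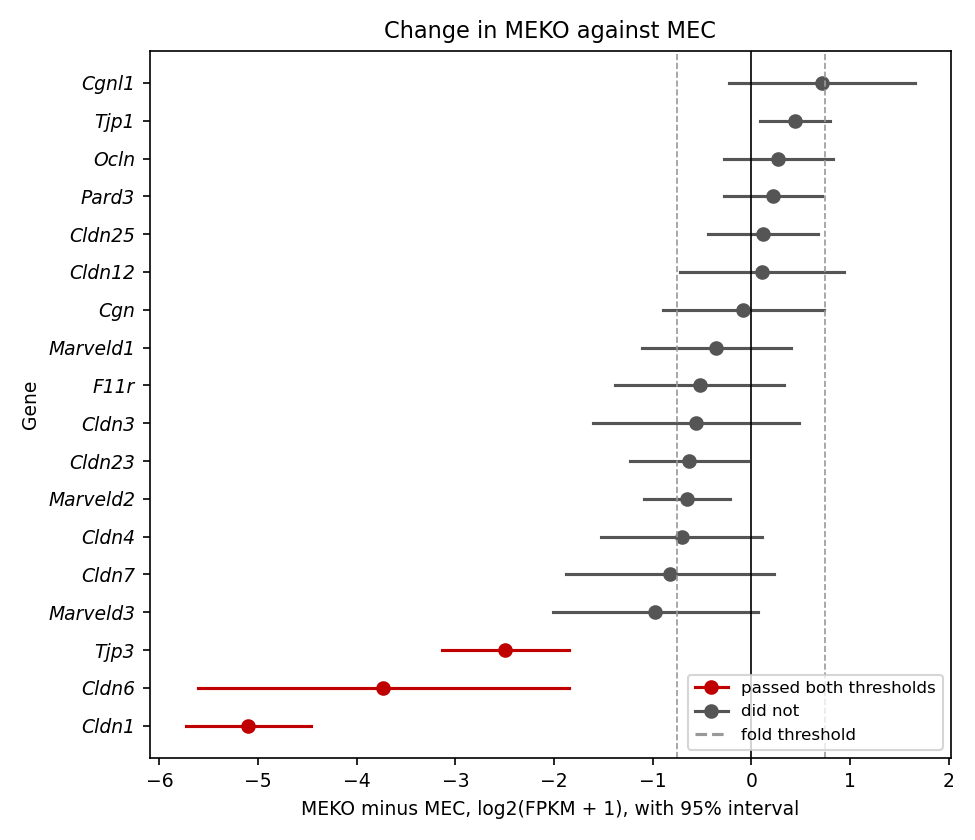
Difference of MEKO from MEC in 18 of the 19 tested genes on the scale of log2(FPKM + 1), as the limma estimate (point) with its 95% interval (line), and dashed lines at the fold threshold. The called genes *Cldn1*, *Cldn6* and *Tjp3* lie between -5.10 and -2.49, and the other genes shown lie between -0.97 and 0.71.

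*Cldn3*, *Cldn4* and *Cldn7*, the claudins of simple epithelia whose loss marks the claudin-low type, stayed abundant and varied by line. *Cldn4* (chr5:134945119-134946934, minus strand) had 709, 807 and 661 FPKM in MEC and 327, 346 and 767 FPKM in lines 199, 233 and 336. Lines 199 and 233 were below MEC, and line 336 was within its range. The log2 fold change was -0.71 (95% interval -1.52 to 0.11, limma adjusted p = 0.232). Without line 336 it was -1.10 and passed (limma adjusted p = 0.0210), and without line 199 it was -0.49 (limma adjusted p = 0.379).

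*Cldn3* (chr5:134986214-134987472, plus strand), 39.3 kb from *Cldn4*, had 299.5, 305.4 and 313.5 FPKM in MEC and 103, 242 and 357 FPKM in lines 199, 233 and 336. Line 336 was above MEC while the others were below. The difference was -0.56 (95% interval -1.60 to 0.48, limma adjusted p = 0.436), with -0.06 without line 199 and -0.95 without line 336. *Cldn7* (chr11:69964779-69967885, plus strand) had 196, 197 and 207 FPKM in MEC and 53.4, 158 and 171 FPKM in the lines. Here all lines were below MEC, with line 199 lowest. On the log2 scale MEKO differed by -0.82 (95% interval -1.87 to 0.23, limma adjusted p = 0.272), and -0.29 without line 199. The intervals of these genes reach past a difference of 1 on the log2 scale, so that these libraries do not show that the levels were alike.

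The remaining expressed claudins had no call. *Cldn12*, which takes part in calcium uptake in the gut, had 26.3, 25.3 and 25.8 FPKM in MEC and 17.6, 47.7 and 25.7 FPKM in lines 199, 233 and 336. The lines thus lay on both sides of the narrow MEC range. The log2 fold change was 0.11 (95% interval -0.72 to 0.94, limma adjusted p = 0.861), with -0.27 without line 233 and 0.43 without line 199. *Cldn23* had 7.11, 7.53 and 7.39 FPKM in MEC and 5.37, 2.81 and 5.45 FPKM in the lines. All lines were under MEC, and the log2 fold change of the group was -0.63 (95% interval -1.22 to -0.03, limma adjusted p = 0.161), with -0.38 without line 233. The entry named *Cldn25* had 49.6 to 57.9 FPKM in MEC and 45.8 to 81.5 FPKM in the lines, a log2 fold change of 0.12 (limma adjusted p = 0.769) that turned to -0.12 without line 233. RefSeq gives *Cldn25* as an older name of 2 genes, *Cldnd1* and *Cldn25-ps*, and neither was in the table under its current name. The name alone thus does not assign the entry, and it was left out of the sums.

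Because FPKM is a level per length, claudins could be summed and ordered within a library. The other 24 claudins summed to 1329, 1451 and 1321 FPKM in MEC, and to 508, 799 and 1335 FPKM in lines 199, 233 and 336. Line 336 was inside the MEC range, and the other lines were well under it. The means were 1367 ± 73.0 FPKM in MEC and 880.3 ± 419.6 FPKM in MEKO (SD, n = 3), a difference of -486.7 FPKM. Without line 199 the MEKO mean was 1067 FPKM and the difference -300.4 FPKM.

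The order was *Cldn4*, *Cldn3*, *Cldn7* in all 6 libraries. Next came *Cldn1* in MEC, and *Cldn12* in the lines. *Cldn4* alone made up 50.03% to 55.6% of the sum in MEC, and 64.5%, 43.4% and 57.5% in lines 199, 233 and 336. *Cldn3*, *Cldn4* and *Cldn7* together made up 90.7%, 90.2% and 89.4% in MEC and 95.2%, 93.4% and 97.02% in the lines. Their joint share was higher in every line than in any MEC library although their joint level was lower in lines 199 and 233. *Cldn1* made up 4.41% to 5.67% of the sum in MEC and 0.189% or less in the lines. The claudins at 1 FPKM or more, *Cldn25* included, numbered 9, 10 and 10 in MEC and 6, 7 and 8 in lines 199, 233 and 336.

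**Figure D3:**
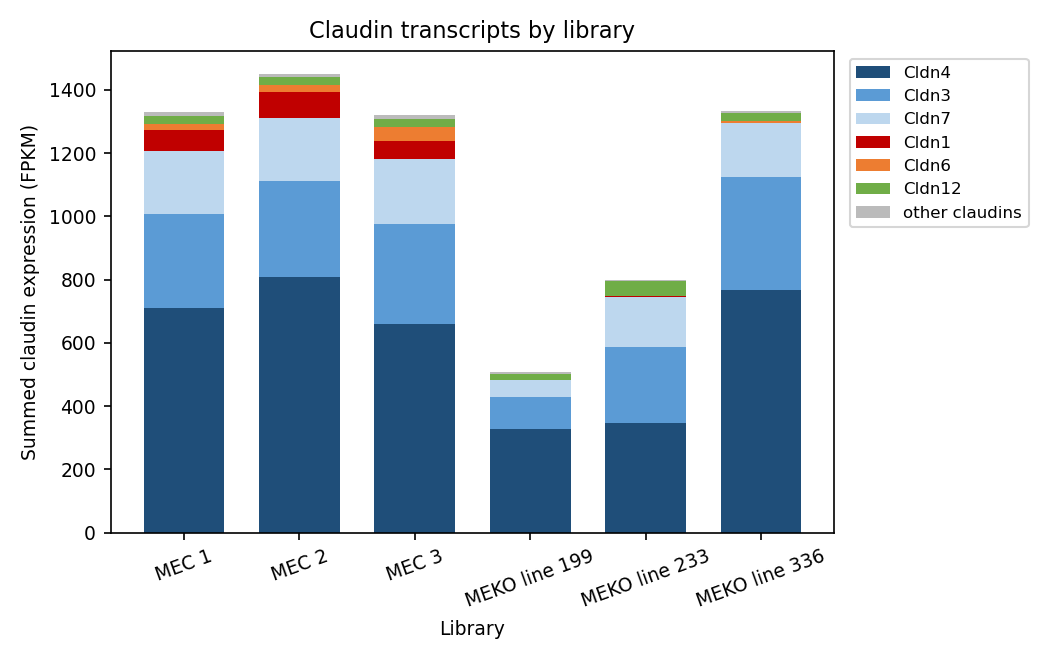
Summed FPKM of 24 claudins in each library (*Cldn25* left out), stacked by gene. *Cldn4*, *Cldn3* and *Cldn7* fill most of every bar, the *Cldn1* and *Cldn6* segments of MEC are nearly gone in the lines, and the bar of line 336 (1335 FPKM) is as high as those of MEC.

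Among the MARVEL proteins, which span the membrane beside the claudins, none was called. *Ocln*, which encodes occludin, had 19.0, 21.2 and 24.6 FPKM in MEC and 19.4, 27.97 and 33.1 FPKM in lines 199, 233 and 336. Its groups overlapped, and the log2 fold change was 0.28 (95% interval -0.27 to 0.82, limma adjusted p = 0.464), with 0.48 without line 199 and 0.11 without line 336. *Marveld2*, 43.2 kb from *Ocln*, encodes tricellulin, which closes the corners where 3 cells meet. It had 18.7, 21.7 and 23.97 FPKM in MEC and 15.9, 12.6 and 11.5 FPKM in the lines, with every line below MEC. The log2 fold change was -0.65 (95% interval -1.09 to -0.22, limma adjusted p = 0.0720). Without line 199 it was -0.78 and passed (limma adjusted p = 0.0302).

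*Marveld3* had 17.9, 15.95 and 19.7 FPKM in MEC and 3.82, 14.98 and 10.4 FPKM in lines 199, 233 and 336. All lines were below MEC, line 199 by far the most. This came to a log2 fold change of -0.97 (95% interval -2.02 to 0.07, limma adjusted p = 0.202), and -0.48 without line 199. *Marveld1*, a relative without a settled place in the junction, had 9.38 to 11.9 FPKM in MEC and 13.2, 5.65 and 6.36 FPKM in the lines, a log2 fold change of -0.36 (limma adjusted p = 0.491). Its value was -0.70 without line 199 (limma adjusted p = 0.0480, under the fold threshold), -0.15 without line 233 and -0.22 without line 336.

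*F11r* encodes JAM-A, a junctional adhesion molecule of epithelia and platelets. It had 92.5, 87.9 and 85.6 FPKM in MEC and 37.7, 58.05 and 105 FPKM in lines 199, 233 and 336. As with *Cldn3*, lines 199 and 233 were below MEC and line 336 above it. Together they gave a log2 fold change of -0.52 (95% interval -1.38 to 0.33, limma adjusted p = 0.375), with -0.18 without line 199 and -0.91 without line 336.

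On the cytoplasmic side, *Cgn*, which encodes cingulin, had 18.2, 23.6 and 13.7 FPKM in MEC and 11.9, 15.3 and 27.0 FPKM in lines 199, 233 and 336. The groups overlapped widely, with a log2 fold change of -0.08 (95% interval -0.89 to 0.73, limma adjusted p = 0.899) that turned to 0.16 without line 199 and to 0.10 without MEC 2. Its relative *Cgnl1* (paracingulin) had 23.2, 26.9 and 28.0 FPKM in MEC and 32.2, 83.04 and 29.99 FPKM in the lines. All lines were above MEC, but line 233, at 319% of the MEC mean, set most of the log2 fold change of 0.71 (95% interval -0.23 to 1.66, limma adjusted p = 0.284), which was 0.25 without it. *Pard3* (PAR3) had 18.9, 20.7 and 22.1 FPKM in MEC and 27.0, 18.1 and 28.4 FPKM in the lines, a log2 fold change of 0.22 (95% interval -0.28 to 0.72, limma adjusted p = 0.519). It was 0.42 without line 233 and 0.10 without line 336.

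Each line was then set against the 3 MEC libraries, with no test, since a line is 1 library. A gene was counted where its log2(FPKM + 1) was more than 1 from the MEC mean and outside the MEC range. *Cldn1*, *Cldn6* and *Tjp3* were lower by this measure in all lines. In line 199, 8 of the 19 genes were lower, adding *Cldn3*, *Cldn4*, *Cldn7*, *F11r* and *Marveld3*, and none was higher, against 12.3% and 7.89% of all tested genes. In line 233, 5 were lower, adding *Cldn4* and *Cldn23*, and *Cgnl1* was higher, against 13.8% and 6.36%. In line 336 there were no others beside *Cldn1*, *Cldn6* and *Tjp3*, against 14.4% lower and 6.79% higher among all tested genes.

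The lines thus differed in how many of these genes were low. The median difference of the 19 genes in lines 199, 233 and 336 was -0.53, -0.34 and -0.00, where the medians of all tested genes were 0.01, 0.00 and 0.02. *Cldn3* stood at -1.56, -0.34 and 0.22 in lines 199, 233 and 336, *Cldn7* at -1.89, -0.34 and -0.23, and *F11r* at -1.21, -0.60 and 0.25. Line 199, where these genes were lowest, was also the line with high *Vim* (496 FPKM, against 1.56 and 15.0 FPKM in lines 233 and 336), *Col1a1* (599.7 FPKM) and *Krt5* (608 FPKM), but not with high *Dcn*, *Lum*, *Myh11* or *Oxtr*. The part of these markers in the result was not tested. For *Cldn1* and *Tjp3* the decrease was also present without line 199 (log2 fold changes of -4.85 and -2.25). The remaining lines, 233 and 336, were below every MEC library in fibroblast sum (2.38 and 1.82 FPKM), basal sum (9.92 and 45.1 FPKM) and luminal sum (1962 and 1283 FPKM). The part of cell type in this decrease was not tested.

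**Figure D4:**
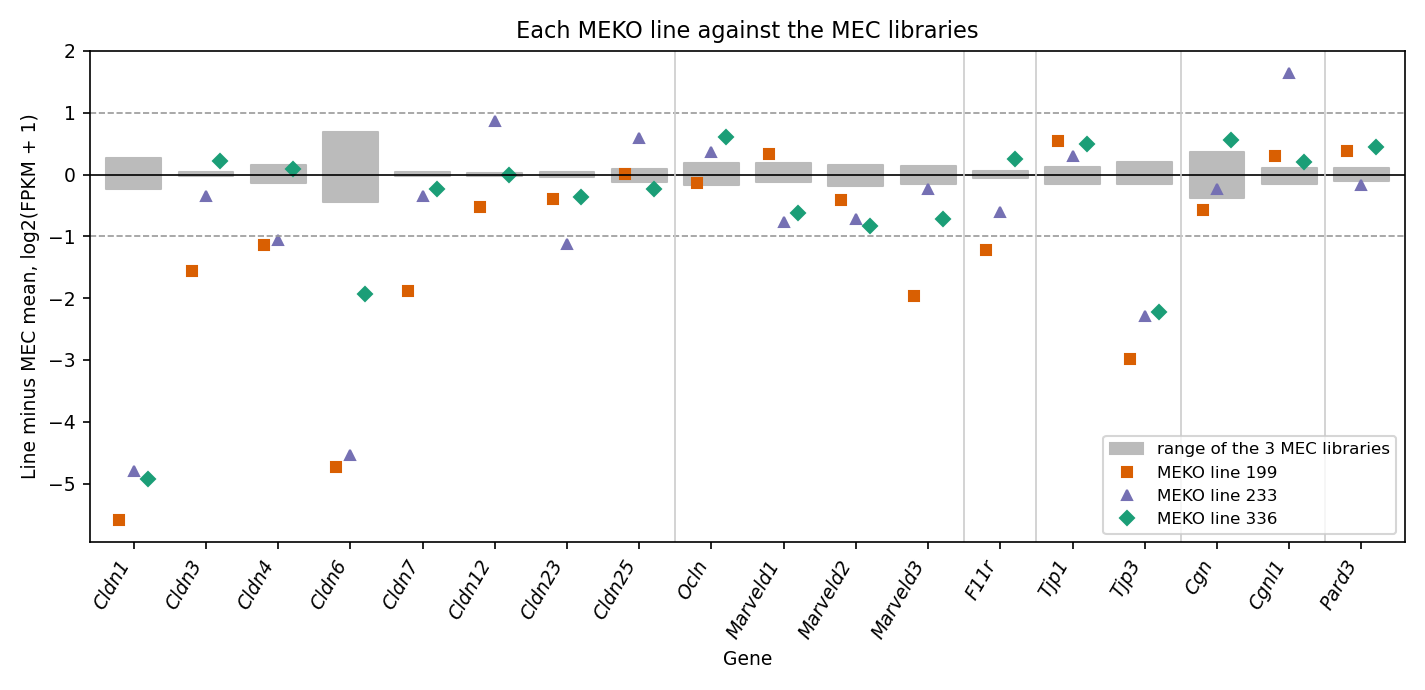
Difference of each MEKO line from the MEC mean in log2(FPKM + 1) for 18 of the 19 genes, with grey bars for the range of the 3 MEC libraries and dashed lines at 1 and -1. Line 199 (squares) has 8 genes below -1, line 233 (triangles) has 5 and line 336 (diamonds) has 3, and only *Cgnl1* in line 233 is above 1.

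The other 17 genes, all named as claudins, were below the filter. *Cldn8* and *Cldn10* were the nearest to it. *Cldn8* had 0.868, 0.834 and 1.90 FPKM in MEC and 0.00885, 0.0432 and 0.552 FPKM in lines 199, 233 and 336. *Cldn10* had 1.46, 1.46 and 1.21 FPKM in MEC and 0.134 FPKM in line 233, and it was listed at 0 in the other lines. Both were higher in every MEC library than in any line and were not tested.

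*Cldn5*, the claudin of blood vessel walls, had 0.527, 1.23 and 0.0574 FPKM in MEC and was listed at 0 in all lines. The sum of 6 endothelial markers, which include *Pecam1* and *Cdh5*, was 17.4, 20.4 and 2.42 FPKM in the same MEC libraries and 0.600 FPKM or less in the lines, so that *Cldn5* and these markers were both lowest in MEC 3 among the MEC libraries. Each line had 1 of the 6 at 0. *Cldn11*, a claudin of myelin and testis, was at 0.139 FPKM or less in MEC and listed at 0 in the lines, and *Cldn2*, which forms a cation pore, was at 0.498 FPKM or less in all libraries. *Cldn20* was at 0.865 FPKM in MEC 3 and lower elsewhere. *Cldn22*, whose exons lie wholly inside *Wwc2* on the opposite strand, was at 0.347 FPKM or less, and *Cldn15*, *Cldn18*, *Cldn19* and *Cldn26* were at 0.296 FPKM or less. RefSeq gives *Cldn26* as an older name of *Tmem114*. *Cldn13*, *Cldn14*, *Cldn16*, *Cldn17* and *Cldn24* were listed at 0 in all 6 libraries.

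Other genes of the junction and its polarity complexes were counted from a hand-written list of 51, of which 50 were matched by name and 43 were tested. The gene not matched was *Cldnd1*, which may be the entry named *Cldn25*. In MEKO 5 were called lower and 2 higher (16.3% in either direction, against 9.9% of all tested genes), and the median log2 fold change was -0.34. Leaving out MEC 1 or MEC 2 left 0 calls, and leaving out MEC 3 left 2 lower and 0 higher. At an unadjusted p below 0.05, limma had 20 of the 43 with all libraries, and 28.2% of all tested genes.

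The partners called lower were *Ildr1*, *Epcam*, *Prkci*, *Amot* and the entry that holds *Igsf5*. *Ildr1*, an angulin that brings tricellulin to cell corners, had 30.6, 32.5 and 48.4 FPKM in MEC and 1.53, 10.3 and 1.91 FPKM in lines 199, 233 and 336, a log2 fold change of -3.10 (limma adjusted p = 0.0248). *Epcam*, an adhesion protein that binds claudin-7, had 539, 519 and 549 FPKM in MEC and 252, 144 and 128 FPKM in the lines, a log2 fold change of -1.68 (limma adjusted p = 0.0154). *Prkci*, the atypical protein kinase C that works with PAR3, had 78.0, 85.4 and 73.3 FPKM in MEC and 49.0, 31.5 and 22.4 FPKM in the lines, a log2 fold change of -1.25 (limma adjusted p = 0.0416). In all 3 genes every line was below every MEC library.

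*Amot*, which encodes the scaffold angiomotin, had 15.2, 19.5 and 35.4 FPKM in MEC and 1.22, 2.77 and 8.59 FPKM in lines 199, 233 and 336, a log2 fold change of -2.41 (limma adjusted p = 0.0487). The entry that joined *Igsf5* (JAM4) with *Pcp4* fell by 3.91 on the log2 scale (limma adjusted p = 0.0154), and its change cannot be assigned to either gene. The partners called higher were *Dlg1* and *Tjap1*. *Dlg1*, of the basolateral Scribble complex, had 41.4, 39.2 and 47.3 FPKM in MEC and 63.8, 90.01 and 123 FPKM in the lines, a log2 fold change of 1.05 (limma adjusted p = 0.0489). *Tjap1*, a junction-associated protein, had 8.22, 9.09 and 6.57 FPKM in MEC and 20.1, 12.7 and 17.7 FPKM in the lines, a log2 fold change of 0.98 (limma adjusted p = 0.0409). Of 13 alternative fits, *Dlg1* lost its call in 10, *Amot* in 9, *Tjap1* in 7, *Prkci* in 6, *Ildr1* in 4, *Epcam* in 3 and *Igsf5* in 2. None of these genes turned sign in them, and the log2 fold change stayed between -5.75 and -3.48 for *Igsf5*, -3.79 and -2.57 for *Ildr1*, -1.97 and -1.48 for *Epcam* and 0.82 and 1.29 for *Dlg1*.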

How the data were processed

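RNA-seq of 3 MEC and 3 MEKO libraries was analysed. The deposited table holds FPKM values that the authors made from paired-end reads aligned to mm10, normalized for gene length and library size. The submitters' processing notes name Bowtie2, TopHat2 2.0.14, Cufflinks 2.2.1 and Cuffdiff. The gene annotation is not given in the sources used here. The table gives no read counts. From the steps between low values, relative depth was estimated at 0.920 to 1.30 times that of MEC 1, and no counting interval was possible. Of 37755 entries, 2 held no values, and no column was left unused. Sequencing batches are not given in the labels.

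Genes were matched by name, the entry with the highest mean being used. The members and lists were chosen with earlier results of these data known. Genes with a mean of at least 1 FPKM were tested with limma 3.58.1 in R 4.3.3 on log2(FPKM + 1) with a trended prior variance, and p-values were adjusted by Benjamini-Hochberg over all tested genes. Calls needed an adjusted p below 0.05 and a difference over 0.75, the thresholds of the study. Every member but 1, which is not reported here, was named, as was each called gene of the partner list. The fit was tested on simulated data. Positions are from GENCODE M21 on GRCm38, and promoters are from RefSeq on GRCm38.p6. Alternatives were a pseudocount of 0.1, other filters, quantile normalization, upper-quartile scaling, no trend, sample weights, no fold threshold and leaving out each library. With a library left out, the spread was pooled over the others.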

Additional observations from a re-analysis of the deposited data

How the results depend on the processing

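No paired analysis was possible because the MEC libraries came from pools of virgin mice and the MEKO libraries from lines of tumors of parous mice. The count of tight junction members called lower, 3 with all libraries, was 2 with a pseudocount of 0.1 and 2 to 4 when single libraries were left out, and 0 members were called higher in any alternative. Of the single genes, *Cldn4* passed without line 336 and *Marveld2* without line 199. Signs turned in *Cgn* (0.10 without MEC 2 and 0.16 without line 199, from -0.40 to 0.16 over the fits without single libraries), *Cldn12* (-0.27 without line 233, from -0.27 to 0.43) and *Cldn25* (-0.12 without line 233, from -0.12 to 0.29). Partner genes called higher, 2 with all libraries, were 1 with a pseudocount of 0.1, a mean of at least 5 FPKM, quantile normalization, upper-quartile scaling or no trend, 0 without the filter, and 0 to 2 when single libraries were left out. Partner genes called lower, 5 with all libraries, were 3 without the filter, 8 with sample weights, and 0 to 5 when single libraries were left out. Among all tested genes, 329 were called higher and 905 lower. These counts were 600 and 1378 with sample weights, 501 lower with a mean of at least 5 FPKM, and 48 to 568 higher and 211 to 1398 lower when single libraries were left out. With quantile normalization, 3 members in place of 5 were lower in line 233, and the median of all tested genes shifted to 0.10. The summed claudin level differed by -486.7 FPKM between MEKO and MEC, by -507.5 after upper-quartile scaling, and by -713.9 to -300.4 when single libraries were left out, an alternative chosen after seeing the data. The lowest of these was without line 336 and the highest without line 199. The causes were not tested.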
